A study of Mus musculus with 6 samples.

Results

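The genes described here encode the first enzymes of glycolysis, from the trapping of glucose to the committed step and its control: 10 genes chosen by name (Hk1, Hkdc1, Gpi1, Pfkl, Pfkm, Pfkp, Pfkfb1, Pfkfb2, Pfkfb3 and Pfkfb4) among the 24346 gene symbols of the expression tables. All 10 had a row in each table, and all 10 reached the mean of at least 1 FPKM that 11737 genes reached. FPKM counts the sequenced fragments of each gene per kilobase of transcript and scaled by the total of mapped fragments, so levels can be set side by side between genes. Kidney messenger RNA was sequenced from 6 samples of mice that had lost 1 kidney to unilateral nephrectomy (UNX). Both groups ate a serine-free diet for 1 week before the operation and were killed 2 days after it; 3 samples came from mice with plain drinking water (vehicle) and 3 from mice with 0.1% D-serine, the mirror-image form of L-serine, in the water. The labels used here state no strain, sex or age, nor whether each sample was 1 mouse, so the tests measure the spread between these samples. Sham-operated mice were not analysed here.

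Hexokinases add a phosphate to glucose and so keep it in the cell, and glucose-6-phosphate isomerase turns the product into fructose 6-phosphate. 6-phosphofructo-1-kinase, a tetramer built from liver-type (Pfkl), muscle-type (Pfkm) and platelet-type (Pfkp) subunits, adds a second phosphate in the step that commits the sugar to glycolysis. The PFKFB enzymes make and remove fructose 2,6-bisphosphate, a signal molecule that activates 6-phosphofructo-1-kinase and inhibits fructose 1,6-bisphosphatase, the enzyme that runs the step backwards. In the kidney, glucose synthesis is a property of the proximal tubule, whereas glycolysis is strongest in the distal segments. The series title links D-serine to glycolysis, and the question here is whether the transcripts of its upper steps differ between the groups.

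Of the 10 genes, 1 kept its groups apart: Pfkfb1, which was higher in 3 of 3 D-serine libraries than in any vehicle library. Among all tested genes, 35.8% did not overlap between groups, 16.5% with D-serine higher and 19.4% with it lower, so 1 of 10 lay below that background. Pfkfb1 reached the minimum of 1 FPKM only through the D-serine group (vehicle mean 0.531 FPKM), so a difference in that direction was built into its being tested, and its separation is given as a description. The other 9 genes had a mean above 1 FPKM in both groups. No member passed the threshold of 0.05 in limma after adjustment over all tested genes, where 0.0767% of genes passed, and 1 of 10 had an unadjusted p under 0.05, against 27.7% of all tested genes. The median log2 difference of the 10 genes was 0.023, with 5 higher and 5 lower, beside -0.0078 over all tested genes. The most abundant genes of each step, Hk1, Gpi1 and Pfkm, had groups that overlapped.

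Because Pfkfb1 was the only member whose groups separated and Pfkfb2 is the most abundant member of the same family, the stretches before 1 start site of each are shown. They are the 250 bases upstream of a RefSeq start site on GRCm38.p6, the assembly that mm10 names, 5′ to 3′ on the strand of the gene. The Pfkfb1 stretch is chrX:150594178-150594427 (plus strand) and the Pfkfb2 stretch is chr1:130715822-130716071 (minus strand), and neither overlaps an exon in GENCODE release M21. Both stretches lie inside their genes, which are annotated from 150588229 to 150643878 for Pfkfb1 and from 130689182 to 130729253 for Pfkfb2. Another RefSeq start site of Pfkfb2, at 130716048, falls within the Pfkfb2 stretch. Capitals mark the motif CACGTG, a form of the E-box that holds the letters ACGTG, 1 form of the core bound by hypoxia-inducible factors. Of the Pfkfb2 stretches only the 1 shown holds CACGTG, so the pair shown is no contrast between the genes.
Pfkfb1: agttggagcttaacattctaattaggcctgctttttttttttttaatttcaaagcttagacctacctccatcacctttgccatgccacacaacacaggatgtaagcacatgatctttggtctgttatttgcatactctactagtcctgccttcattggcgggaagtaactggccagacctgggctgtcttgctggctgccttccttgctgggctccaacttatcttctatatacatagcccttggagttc
Pfkfb2: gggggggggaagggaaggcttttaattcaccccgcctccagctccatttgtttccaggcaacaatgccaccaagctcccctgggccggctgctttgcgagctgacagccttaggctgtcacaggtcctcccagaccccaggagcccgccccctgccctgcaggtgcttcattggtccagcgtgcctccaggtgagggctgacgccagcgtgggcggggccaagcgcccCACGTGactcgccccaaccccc

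RefSeq lists 4 start sites for Pfkfb1 and 0 of the 4 upstream stretches hold ACGTG on either strand. For Pfkfb2 it was found upstream of 2 of 3 start sites, for Pfkfb3 of 2 of 2, for Pfkm of 2 of 4, and for none of the sites of Hk1, Hkdc1, Gpi1, Pfkl, Pfkp and Pfkfb4. In all, 6 of 20 stretches of these genes held it, beside 16.6% of 32851 stretches of the same length over all genes and 21.6% of those of tested genes. CACGTG, which overlaps ACGTG, stood in 3 of the 20, in 6.02% of all stretches and in 8.40% of those of tested genes. Some of the 20 stretches overlap each other. Other forms of the core, such as GCGTG, were not searched for, so a stretch without ACGTG can still hold that core. The tables give 1 value per gene, so the start sites in use in these kidneys are not known from them, and a match of letters is not evidence of binding.

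Pfkfb1 encodes the isoform first known from liver and muscle, and lies on the X chromosome (150588229 to 150643878, mm10). It stood at 0.622, 0.435 and 0.537 FPKM in the vehicle group and at 1.39, 1.57 and 1.65 FPKM in the D-serine group, in the order of replicates 1 to 3. The lowest D-serine library was above the highest vehicle library. The means were 0.531 ± 0.0939 and 1.54 ± 0.129 FPKM (SD, n = 3 each), a ratio of 2.89. On the log2(FPKM + 1) scale, which understates the change of so low a gene, the difference was 0.73 ± 0.14 (SE; limma adjusted p = 0.064, 95% interval 0.39 to 1.07). It passed only when small RNA genes were left out before the fit (adjusted p = 0.046) and in none of the other 14 settings tried in which it was tested. It was number 232 of the 11737 tested genes by p. The gene was in the lowest 0.5% of the tested genes by mean level, and its mean of 1.03 FPKM passed the minimum for testing only because the D-serine group is high, so this p and interval are no independent support for the difference. With no minimum, where the gene is tested whatever its level, the difference was the same and the adjusted p was 0.097 (limma).

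The low level of Pfkfb1 allowed whole fragments to be counted. Values of low genes are whole multiples of what 1 fragment is worth in a library, and those of Pfkfb1 matched 9, 6 and 7 fragments in the vehicle group and 18, 19 and 21 in the D-serine group. These are the smallest whole numbers that fit all 6 values, and no value departed from a whole number by more than 4e-05. Summed, 22 fragments stood against 58, which is 2.88-fold per unit of depth with an exact 95% interval of 1.74 to 4.95 that covers counting error only. These fragments are the same 6 values in another unit, so this ratio and interval are no second observation of the difference. The intervals of single libraries were wide: 9 fragments allow 4.12 to 17.1, and 18 allow 10.7 to 28.5 (exact Poisson). Hkdc1 was the other member for which whole fragments were recovered.

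**Figure D1:**
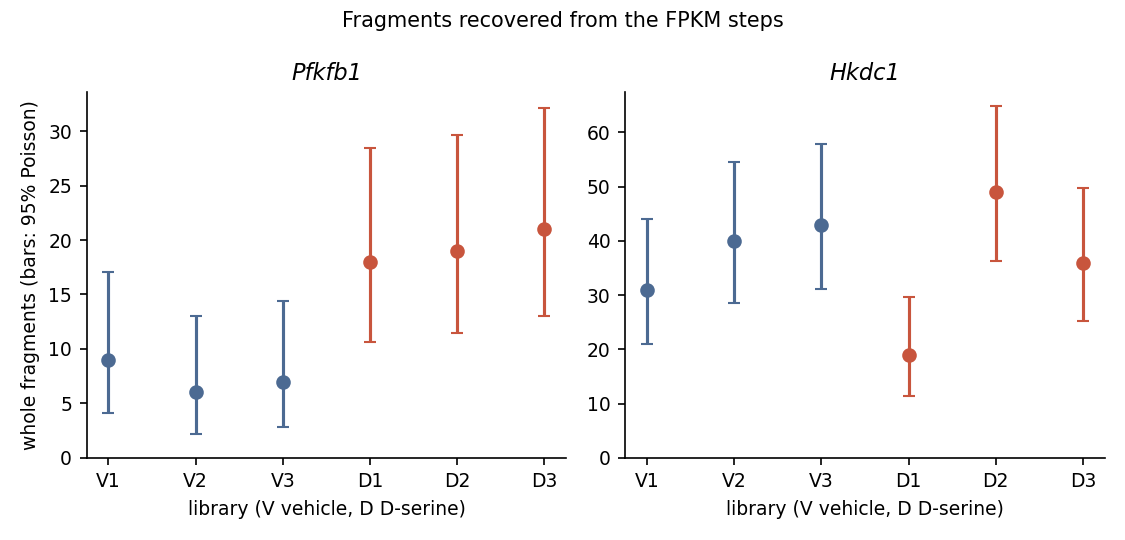
Whole fragments of Pfkfb1 and Hkdc1 recovered from the steps of the FPKM values, per library (V vehicle, D D-serine, replicates 1 to 3), with exact 95% Poisson intervals as bars. All 3 D-serine libraries of Pfkfb1 lie at 18 to 21 fragments and the vehicle libraries at 6 to 9, while Hkdc1 runs from 19 to 49 fragments within the D-serine group.

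Pfkfb1 shares 123 exon bases with Apex2, a DNA repair gene on the opposite strand, and no source used here states whether strand was used in counting. Apex2 stood at 5.18, 4.30 and 6.65 FPKM in the vehicle group and at 6.79, 5.06 and 6.01 FPKM in the D-serine group, so its groups overlapped. Several lists of cell type markers also had groups that lay apart; of all tested genes, 16.5% separated upwards and 19.4% downwards. In the list of 9 collecting duct principal cell markers, 6 separated upwards and the summed level was 467 to 622 FPKM in the vehicle group and 685 to 1028 FPKM in the D-serine group. In the list of 8 genes of dividing cells, 8 separated upwards and the sum was 13.1 to 16.9 and 66.1 to 230 FPKM, highest in D-serine replicate 1. Proximal tubule S3 markers were lower, with 4 of 8 tested members separated and a sum of 1060 to 1346 and 518 to 850 FPKM. Of 9 intercalated cell markers, 5 separated upwards, with sums of 343 to 417 and 405 to 559 FPKM that overlapped. The summed fibroblast, pericyte and smooth muscle markers were at 27.1 to 37.9 FPKM in the vehicle group and at 41.1 to 76.3 FPKM in the D-serine group, with 3 of 9 separated upwards. The distal convoluted and connecting tubule markers summed to 630 to 808 FPKM in the vehicle group and to 809 to 952 FPKM in the D-serine group, with 7 of 7 higher and 2 separated. Of the androgen-responsive kidney genes, 7 of 7 tested were lower and 5 separated, with a median log2 difference of -1.07, while their sums, carried by Kap, overlapped (111341 to 136676 and 93668 to 126616 FPKM). Slco1a1, Slc7a12 and Cyp7b1 stand in both this list and the proximal tubule S3 list, so these lists are not separate observations. No marker of these 7 lists was at 0 in every library, and no member of them passed in limma over all tested genes. In whole kidney, more cells of a type and more RNA per cell cannot be told apart, and the part of cell make-up in the Pfkfb1 values was not tested.

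The other PFKFB genes did not separate. Pfkfb2, the isoform best known from heart, was at 6.77, 7.39 and 7.57 FPKM in the vehicle group and 5.95, 7.87 and 6.86 FPKM in the D-serine group. D-serine replicate 1 was the lowest of the 6 and D-serine replicate 2 the highest. Pfkfb3, the inducible isoform with a strong bias towards the kinase reaction, was at 4.31, 3.92 and 3.56 FPKM and at 3.87, 4.06 and 3.24 FPKM. Pfkfb4, the isoform first known from testis, was at 3.56, 3.80 and 4.43 FPKM and at 3.54, 5.82 and 2.78 FPKM. Its highest and lowest libraries were both in the D-serine group, 2.10-fold apart. The log2 differences were -0.068 for Pfkfb2, -0.064 for Pfkfb3 and -0.0079 for Pfkfb4 (limma adjusted p = 0.73, 0.75 and 0.98). The 95% intervals ran from 0.789 to 1.15 times for Pfkfb2, from 0.787 to 1.16 times for Pfkfb3 and from 0.700 to 1.41 times for Pfkfb4, on the scale of FPKM + 1.

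Read as a family, the PFKFB genes summed to 15.6 ± 0.420 FPKM in the vehicle group and 16.2 ± 2.71 FPKM in the D-serine group (n = 3 each; exact permutation p = 1, two-sided, where 3 against 3 cannot go below 0.1). Pfkfb1 made up 4.08, 2.80 and 3.33% of that sum in the vehicle group and 9.45, 8.13 and 11.3% in the D-serine group (exact permutation p = 0.1). These shares rest on the same values as the difference of Pfkfb1 and are no second observation. Pfkfb2 held the largest share in every library, from 40.4 to 47.5%, and the shares of Pfkfb2, Pfkfb3 and Pfkfb4 overlapped between groups.

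**Figure D2:**
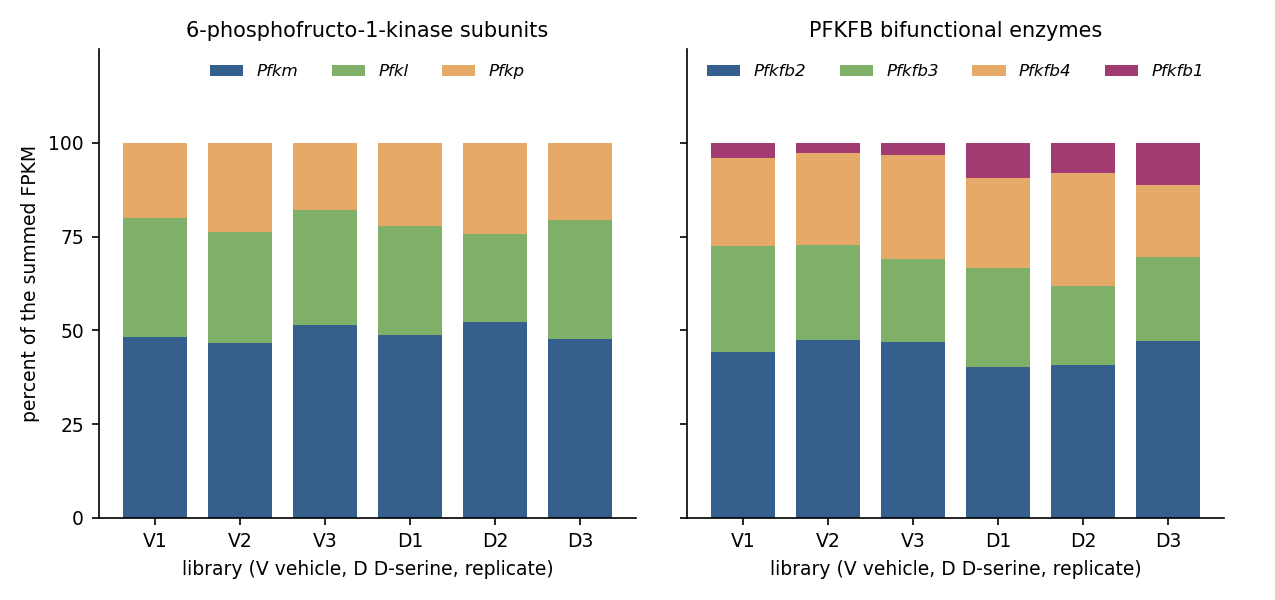
Share of each gene in the summed FPKM of its family, in percent, per library (V vehicle, D D-serine, replicates 1 to 3), for the subunits of 6-phosphofructo-1-kinase and for the PFKFB enzymes. Pfkm holds 46.7 to 52.3% of the first family in all 6 libraries, and the Pfkfb1 segment is 2.80 to 4.08% with vehicle and 8.13 to 11.3% with D-serine.

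For 6-phosphofructo-1-kinase itself, the muscle-type subunit was the most abundant in each of the 6 libraries. Pfkm was at 27.1, 26.9 and 28.8 FPKM in the vehicle group and at 32.4, 29.0 and 25.2 FPKM in the D-serine group. Pfkl was at 17.9, 17.0 and 17.2 FPKM and at 19.4, 13.1 and 16.8 FPKM. Pfkp was at 11.3, 13.7 and 10.001 FPKM and at 14.8, 13.4 and 10.9 FPKM. D-serine replicate 1 was the highest library for all 3 subunits. Pfkl was tightly held with vehicle, with an SD of 0.449 FPKM, and ran from its lowest to its highest value within the D-serine group, with an SD of 3.17 FPKM.

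The groups overlapped for each subunit. The log2 difference was 0.054 ± 0.11 for Pfkm, -0.092 ± 0.14 for Pfkl and 0.15 ± 0.15 for Pfkp (SE; limma adjusted p = 0.77, 0.69 and 0.55). The intervals ran from 0.866 to 1.24 times for Pfkm, from 0.746 to 1.18 times for Pfkl and from 0.866 to 1.41 times for Pfkp on the FPKM + 1 scale. The subunits summed to 56.7 ± 0.857 FPKM in the vehicle group and 58.3 ± 7.25 FPKM in the D-serine group (n = 3 each, exact permutation p = 1). The D-serine sum was 66.5 FPKM in replicate 1 and 55.5 and 52.9 FPKM in replicates 2 and 3, so that without replicate 1 the D-serine mean was 2.48 FPKM below the vehicle mean. Pfkl made up 29.5 to 31.7% of the sum with vehicle and 29.1, 23.5 and 31.8% with D-serine, where replicate 2 was the low library.

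Some of these genes overlap others, which limits how exactly reads can be assigned. Pfkp shares 748 exon bases with Pitrm1, a mitochondrial protease gene on the opposite strand, which stood at 11.9 to 14.8 FPKM in the vehicle group and 8.53 to 11.98 FPKM in the D-serine group. Pfkm shares 18 exon bases with Senp1, a SUMO protease gene on the opposite strand that was at 2.17 to 4.01 FPKM over all libraries. It also shares 341 exon bases with the gene Gm26513 on the same strand. Gpi1 shares 741 exon bases with the long noncoding RNA gene Gm26762 on the opposite strand. Pfkfb2 shares 1262 exon bases with the predicted gene Gm29427 on the same strand. No value of Gm26513, Gm26762 or Gm29427 is used here. Pfkfb2 also shares 154 exon bases with Yod1 on the opposite strand, which was at 0.399 to 0.731 FPKM over all libraries.

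Hexokinase transcripts came almost wholly from Hk1, which encodes the form that binds mitochondria in most tissues. Hk1 was at 26.2, 30.0 and 24.5 FPKM in the vehicle group and at 33.4, 31.4 and 26.4 FPKM in the D-serine group. Replicates 1 and 2 of the D-serine group were above all vehicle libraries, and replicate 3 lay among them. The means were 26.9 ± 2.83 and 30.4 ± 3.63 FPKM (n = 3 each), which on the log2 scale differed by 0.17 ± 0.12 (SE; limma, adjusted p = 0.40) with an interval from 0.919 to 1.38 times on the FPKM + 1 scale. Hk1 shares 157 exon bases with the antisense gene Hk1os, which was listed at 0 to 2.54 FPKM.

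Hkdc1, a hexokinase-like gene that lies beside Hk1 on chromosome 10 (62383137 to 62422491; Hk1 at 62268855 to 62379908), was far lower. It was at 1.002, 1.36 and 1.54 FPKM in the vehicle group and at 0.688, 1.89 and 1.32 FPKM in the D-serine group. The lowest and the highest value were both in the D-serine group. In whole fragments this was 31, 40 and 43 in the vehicle group and 19, 49 and 36 in the D-serine group. The exact Poisson intervals of 19 (11.4 to 29.7) and 49 (36.3 to 64.8) do not overlap. These 2 libraries are the lowest and the highest of the 6, and separate samples also vary for reasons other than counting. The depth-adjusted ratio of the groups was 0.998 with an interval of 0.757 to 1.31 that covers counting error only, and the log2 difference was -0.027 ± 0.22 (SE, limma adjusted p = 0.95).

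Hk2 and Hk3 were at the floor of detection. Hk2, the insulin-regulated muscle form, had 0, 0 and 1 fragments in the vehicle group and 1, 3 and 1 in the D-serine group. Hk3, found mostly in blood cells, had 0, 0 and 1 and then 0, 1 and 2 fragments. These counts are too small for a comparison, and neither gene was tested. Hk1 made up 94.1 to 98.0% of the summed FPKM of Hk1 and Hkdc1 over the 6 libraries.

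Gpi1, glucose-6-phosphate isomerase, was the most abundant of the 10 genes, higher than 95.2% of tested genes by its mean of 211 FPKM. It was at 194, 203 and 209 FPKM in the vehicle group and at 228, 204 and 228 FPKM in the D-serine group. Replicates 1 and 3 of the D-serine group were above the vehicle range and replicate 2 was inside it. The means were 202 ± 7.17 and 220 ± 13.8 FPKM (n = 3 each), which on the log2 scale differed by 0.12 ± 0.091 (SE; limma, adjusted p = 0.42). Its interval, 0.936 to 1.26 times on the FPKM + 1 scale, was the narrowest of the 10.

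**Figure D3:**
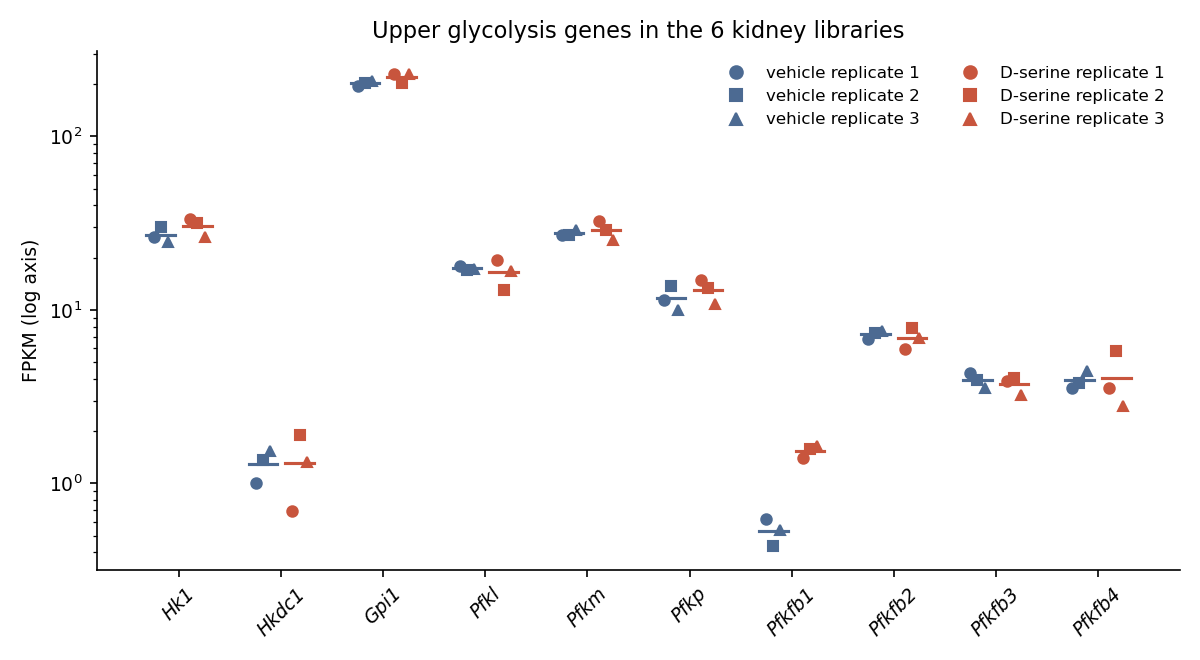
FPKM of the 10 genes on a log axis in each library, with circles, squares and triangles for replicates 1 to 3 and a line at each group mean (n = 3). Gpi1 lies at 194 to 228 FPKM and Pfkfb1 at 0.435 to 1.65 FPKM, and only the Pfkfb1 groups do not overlap.

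By mean level the order was Gpi1, Hk1, Pfkm, Pfkl, Pfkp, Pfkfb2, Pfkfb4, Pfkfb3, Hkdc1 and Pfkfb1. Gpi1 stood 6.48 to 8.63 times above Hk1 in the same library. Hk1 and Pfkm could not be ranked, since Hk1 was higher in 4 of 6 libraries. Pfkl was above Pfkp in 5 of 6 libraries, with overlapping ranges. Pfkfb4 and Pfkfb3 overlapped too, with Pfkfb4 higher in 2 of 6 libraries. Hkdc1 was above Pfkfb1 in 4 of 6 libraries, 3 of them vehicle libraries. The other neighbours in this order had ranges that did not overlap over the 6 libraries.

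**Figure D4:**
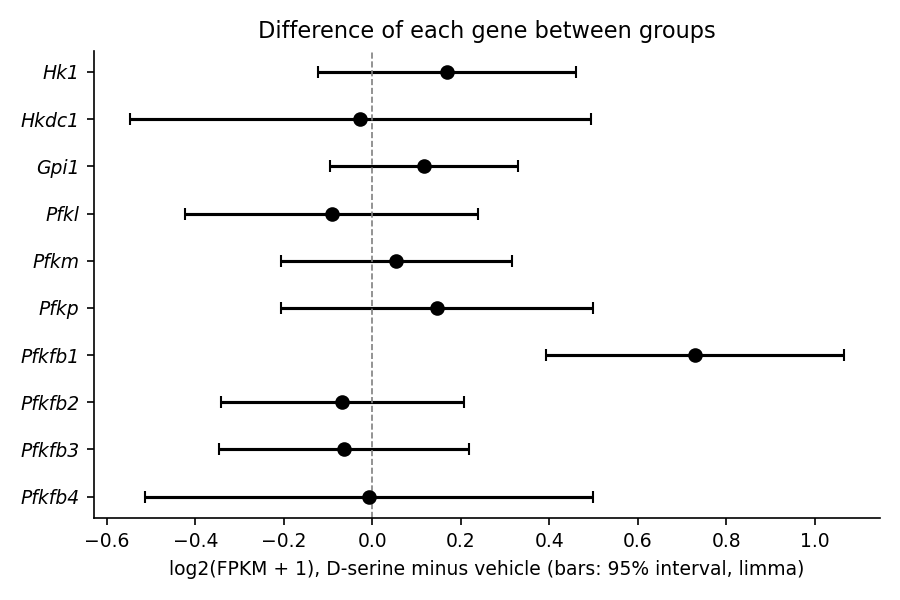
Difference of each gene between the groups, D-serine minus vehicle, on the log2(FPKM + 1) scale, with 95% intervals from limma (3 against 3 libraries). The interval of Pfkfb1 runs from 0.39 to 1.07, and those of the other 9 genes include 0. The intervals are not adjusted for the number of genes tested (Pfkfb1 limma adjusted p = 0.064). Pfkfb1 reached the minimum of 1 FPKM only through the D-serine group, so its interval is no independent support for a difference.

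The D-serine libraries varied more among themselves than the vehicle libraries did. The SD of FPKM was larger with D-serine for 10 of 10 genes, from 1.07 times for Pfkp to 7.07 times for Pfkl, and this held for 65.1% of all tested genes. On the log2 scale it was larger for 9 of 10 genes, all but Pfkfb1, and for 65.6% of tested genes. The median SD of the 10 genes was 0.10 log2 with vehicle and 0.18 log2 with D-serine, beside 0.12 and 0.17 over all tested genes. D-serine replicate 1 was the highest library for 4 of the 10 genes (Hk1 and the 3 subunits of 6-phosphofructo-1-kinase) and D-serine replicate 2 for 3 (Hkdc1, Pfkfb2 and Pfkfb4). Of all tested genes, 16.56% were highest in D-serine replicate 1 and 26.45% in D-serine replicate 2.

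Other genes around these steps lay on both sides of 0 and none of them passed in limma over all tested genes. In the list of other glucose phosphorylation and bypass genes, 2 of the 4 genes tested lay above 0 and 2 below, and the median log2 difference was -0.066, which turned to 0.0035 with no minimum or with a minimum of 5 FPKM. Fbp1, fructose 1,6-bisphosphatase, which opposes 6-phosphofructo-1-kinase, was at 1070, 1074 and 886 FPKM in the vehicle group and at 750, 336 and 966 FPKM in the D-serine group (limma adjusted p = 0.24). Its groups overlapped, and D-serine replicate 2 was the lowest library. Tigar, a phosphatase that lowers fructose 2,6-bisphosphate, was at 3.17, 3.19 and 3.17 FPKM and at 3.06, 2.50 and 2.86 FPKM (limma adjusted p = 0.44). The summed 6-phosphofructo-1-kinase subunits were 0.0526 to 0.0632 of the Fbp1 level with vehicle and 0.0887, 0.165 and 0.0547 of it with D-serine (exact permutation p = 0.2). Fbp1 is itself a marker in the list of the proximal tubule S1 and S2 segments, of which 12 of 13 were lower and 3 separated downwards (19.4% of all tested genes did), with a sum of 8584 to 9677 FPKM in the vehicle group and 7113 to 8226 FPKM in the D-serine group and no marker at 0 in every library. The part of tubule make-up in this ratio was not tested.

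For the steps after fructose 1,6-bisphosphate, 11 of 16 tested genes of lower glycolysis lay above 0 and 5 below, around a median of 0.076 log2. Pgam2, the muscle form of phosphoglycerate mutase, was at 141, 197 and 170 FPKM in the vehicle group and at 334, 365 and 227 FPKM in the D-serine group (limma adjusted p = 0.077). Gapdh was at 1390, 1408 and 1615 FPKM and at 1936, 1862 and 1726 FPKM (limma adjusted p = 0.11). Both separated, as did 6 of the 16 genes in all, 3 higher and 3 lower, near the background of 35.8%. Gapdh has many processed pseudogenes, so its assignment of reads is uncertain.

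Among the genes that carry hexose phosphates into other pathways, 6 of the 15 genes tested lay above 0 and 9 below, around a median of -0.024 log2, and 7 separated, 1 higher and 6 lower, where 16.5% of all tested genes separated upwards and 19.4% downwards. Gfpt1, which diverts fructose 6-phosphate into hexosamine synthesis, was at 8.17, 9.13 and 8.63 FPKM in the vehicle group and at 6.54, 6.06 and 6.06 FPKM in the D-serine group (limma adjusted p = 0.071). Pgm2, a phosphoglucomutase gene, was at 69.2, 73.8 and 67.1 FPKM and at 54.7, 42.7 and 55.3 FPKM (limma adjusted p = 0.085). Both were lower in 3 of 3 D-serine libraries.

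Pfkfb3 and Pfkfb4 are known to respond to hypoxia, and 20 genes of that response were read beside them. Of these, 7 were higher and 13 lower, with a median of -0.080 log2, and 4 of the 20 separated, all lower, close to the 19.4% of all tested genes that separated downwards. That median was -0.011 after correction for length and GC content. P4ha1, a collagen prolyl hydroxylase subunit, was at 16.8, 19.1 and 18.5 FPKM in the vehicle group and at 12.4, 12.3 and 14.3 FPKM in the D-serine group (limma adjusted p = 0.072). Egln3, an oxygen sensor that marks hypoxia-inducible factors for destruction, was at 9.65, 7.96 and 7.94 FPKM and at 6.15, 6.51 and 3.89 FPKM (limma adjusted p = 0.11).

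Profiles most like those of 3 members were found by the root mean square difference of centred log2(FPKM + 1) values over the 6 libraries. Nearest to Hk1 were Dnd1 (0.019), Nol7 (0.031) and Cbx5 (0.034). Nearest to Pfkm were Shkbp1 (0.026), Cpsf4 (0.026) and 2300009A05Rik (0.035), and nearest to Pfkfb2 were A830010M20Rik (0.035), Elf2 (0.036) and Slc25a37 (0.038). The profiles of Hk1, Pfkm and Pfkfb2 themselves spread by 0.15, 0.11 and 0.12 on this measure. These near matches, taken from 11737 genes over 6 libraries, describe these libraries only and were not tested.

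The 6 libraries were of similar depth. The steps of low values gave relative depths from 0.836 (D-serine replicate 2) to 1 (vehicle replicate 1), and no total read counts are used here. Kidney markers were strong in all libraries, with the androgen-regulated proximal tubule gene Kap at 11.6 to 15.8% of the FPKM sum. Skeletal muscle markers summed to at most 4.27 FPKM, with Myh4 and Tnnt3 at 0 in all libraries. Red blood cell markers reached 322 FPKM in vehicle replicate 1 and 6.33 to 34.0 FPKM in the other 5 libraries.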

How the data were processed

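Kidney RNA was made into stranded mRNA libraries, per the labels' protocols, 3 with vehicle and 3 with D-serine. For each sample the authors deposited 1 table, in FPKM. TopHat2 2.0.13, Bowtie2 2.2.3, SAMtools 0.1.19 and Cufflinks 2.2.1 were used on build mm10, per the submitters' processing notes; no source used here states the annotation or the strand setting. FPKM depends on transcript models and on the library total, on which abundant genes such as Kap press.

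Genes whose mean reached 1 FPKM were tested with limma 3.58.1 in R 4.3.3 (trend, two-sided) on log2(FPKM + 1) over 6 libraries, with Benjamini-Hochberg adjustment over all tested genes and a threshold of 0.05. Family sums and shares were compared by exact permutation (SciPy 1.17.1). The limma script was tested on simulated data. Whole fragments were sought up to 60 per library with a tolerance of 0.06. Positions came from GENCODE M21 and upstream sequences from RefSeq (GRCm38.p6), matched by symbol for 10 of 10 genes.

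The members and lists were chosen with earlier results of these data known. Beside the members, the text names Hk2 and Hk3, the 2 genes of each pathway list with the smallest p, the 3 profiles nearest to the most abundant member of each family, and genes that overlap members or belong to marker lists. Alternatives were another pseudocount, minimum, scaling, weighting or trend, small RNA genes left out, the replicate number as a block, a correction for length and GC content (known for 96.4% of tested genes), and each library left out.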

Additional observations from a re-analysis of the deposited data

How the results depend on the processing

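The count of genes called over all tested genes, 9, was not stable: it was 171 with a pseudocount of 0.1 FPKM, 132 with a minimum of 5 FPKM, 15 with median of ratios, 269 with weighted libraries, 332 without small RNA genes, and 2 to 437 when 1 library was left out (2 without vehicle replicate 3, 437 without D-serine replicate 3). Of the 10 members, 1 passed without small RNA genes (Pfkfb1, adjusted p = 0.046) and 0 in every other setting. The Pfkfb1 difference stayed above 0 in 15 of 15 settings, from 0.60 (quantile normalization) to 1.38 (pseudocount of 0.1 FPKM), and from 0.68 to 0.77 without 1 library (adjusted p from 0.060 to 0.23); with a minimum of 5 FPKM it was not tested. Hk1, Gpi1 and Pfkp kept their direction in all 16 settings, without passing, but their size depended on single libraries: without 1 library Hk1 ran from 0.0995 (D-serine replicate 1 left out) to 0.26 (D-serine replicate 3), Gpi1 from 0.090 to 0.17 and Pfkp from 0.049 (vehicle replicate 3) to 0.26 (D-serine replicate 3). The list medians kept their sign in all settings, except the bypass list, which was at 0.0035 with no minimum or a minimum of 5 FPKM; the lowest and highest were -0.11 and 0.0035 for that list, 0.029 and 0.13 for lower glycolysis, -0.11 and -0.0026 for the branch genes and -0.15 and -0.011 for the hypoxia genes.

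With the length and GC trend removed, Pfkm was at -0.0064, Pfkfb2 at 0.035 and Pfkfb3 at 0.00080, and with median of ratios Pfkfb4 was at 0.0052. Without 1 library the log2 difference ran from -0.21 to 0.18 for Hkdc1, -0.21 to 0.054 for Pfkl, -0.030 to 0.15 for Pfkm, -0.16 to 0.021 for Pfkfb2, -0.12 to 0.012 for Pfkfb3 and -0.25 to 0.18 for Pfkfb4. In FPKM, the difference of the 6-phosphofructo-1-kinase sum ran from -2.48 to 4.35 and that of the PFKFB sum from -0.998 to 1.41. In percentage points, the share of Hk1 ran from -0.583 to 1.25, that of Hkdc1 from -1.25 to 0.583, that of Pfkm from -0.643 to 2.09 and that of Pfkfb4 from -3.55 to 1.95. The cause of these changes was not tested.

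The replicate numbers showed no sign of pairing: same-numbered libraries had correlations of -0.070, 0.0030 and 0.067 between their deviations from the group means. Libraries of different number ran from -0.082 to 0.083. Such correlations cannot establish that the samples were unpaired. With the replicate block 2 genes were called over all tested genes and 0 members, and Pfkfb1 had an adjusted p of 0.15. Depth limits Pfkfb1, Hkdc1, Hk2 and Hk3, whose values rest on 0 to 49 fragments per library.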
